A study of Mus musculus with 8 samples.

Results

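Wound skin was examined for 40 genes of skeletal muscle contraction, calcium release and energy supply, out of 18540 genes in the count table. They were taken by name from the gene symbol column and sorted into fast fiber genes (9), slow fiber genes (7), genes of the Z-disc, titin and thin filament (10), calcium release genes (8) and energy enzymes (6). All 40 were in the table and all 40 passed the filter on low counts, which kept 15147 genes.

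A muscle fiber shortens when myosin of the thick filament pulls on actin of the thin filament between anchors called Z-discs, along which titin and nebulin act as molecular rulers. The pull starts when a voltage sensor in the membrane opens the ryanodine receptor and calcium leaves the sarcoplasmic reticulum and binds troponin. Fast and slow fibers use different myosins and troponins. In mouse skin such fibers form the panniculus carnosus, a thin muscle sheet beneath the dermis that a full-thickness wound cuts through.

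Total RNA was sequenced from wound skin of 4 control samples and 4 samples of mice treated for 15 days with the nanocomposite ZnO2/CeO2@ZIF-8 (ZCZ). The labels name the groups con and shiyan and do not name the composite. The treated samples are called Z1C2Z here, the ZCZ variant with the higher share of CeO2, because the study's heatmap gives samples with these numbers that name, whereas its methods text says only ZCZ. The controls in the study's wound experiments received PBS. The study wounded the backs of C57BL mice (6 weeks old) and of diabetic db/db mice (10 weeks old), with a pair of wounds on each mouse. The labels do not say which strain was sequenced, nor whether the samples came from separate mice, so p-values measure only the spread between these samples. How deep each piece of skin was cut is not given in the sources used here. Values by sample are in CPM, counts scaled to a common library size, in the order of the sample numbers (1, 2, 3 and 5 in control, 1, 2, 4 and 5 in Z1C2Z). CPM is not divided by gene length, so levels of different genes are not compared on it.

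The promoters of 4 genes are shown because their results stand apart. Xirp2 and Tnnt1 passed both limits of the test, and Myh7 and Myl3 were high in some samples and near 0 in others. Each sequence runs 5′ to 3′ from 250 bases before the start to 50 bases after it (RefSeq, GRCm38.p6). Capitals mark matches to 4 motifs known from muscle and general promoters. These are CAGCTG (an E-box bound by MyoD family factors), a MEF2-type motif (CTA and TAG separated by any 4 bases), CATTCC (MCAT, bound by TEAD factors) and TATAAA, each searched on both strands.
Xirp2: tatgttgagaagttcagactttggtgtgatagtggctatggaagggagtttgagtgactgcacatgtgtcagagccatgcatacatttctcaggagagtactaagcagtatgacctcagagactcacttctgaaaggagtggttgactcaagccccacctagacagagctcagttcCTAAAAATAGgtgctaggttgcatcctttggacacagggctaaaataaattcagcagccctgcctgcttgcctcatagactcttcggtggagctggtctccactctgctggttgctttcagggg
Tnnt1: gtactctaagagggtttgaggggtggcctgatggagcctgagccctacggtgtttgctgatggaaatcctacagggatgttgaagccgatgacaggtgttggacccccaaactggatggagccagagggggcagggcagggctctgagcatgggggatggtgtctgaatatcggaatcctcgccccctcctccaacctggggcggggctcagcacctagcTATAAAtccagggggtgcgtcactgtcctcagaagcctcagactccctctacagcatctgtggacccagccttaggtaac
Myh7: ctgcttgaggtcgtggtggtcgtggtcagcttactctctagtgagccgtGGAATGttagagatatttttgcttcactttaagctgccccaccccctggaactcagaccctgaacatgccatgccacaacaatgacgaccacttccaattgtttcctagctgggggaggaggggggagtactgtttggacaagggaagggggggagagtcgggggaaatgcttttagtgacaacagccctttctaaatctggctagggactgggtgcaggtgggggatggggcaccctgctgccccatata
Myl3: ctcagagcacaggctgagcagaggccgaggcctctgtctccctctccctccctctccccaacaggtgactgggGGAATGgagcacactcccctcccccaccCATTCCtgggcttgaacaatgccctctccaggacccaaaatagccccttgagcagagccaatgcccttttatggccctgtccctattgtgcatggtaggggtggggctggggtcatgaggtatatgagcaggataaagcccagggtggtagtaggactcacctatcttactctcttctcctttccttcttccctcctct

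The Xirp2 window (chr2:67445752-67446051, + strand) held a MEF2-type match at -74 from the start. The Tnnt1 window (chr7:4515926-4516225, - strand) held TATAAA at -30. In Myh7 (chr14:54994577-54994876, - strand) an MCAT match lay at -201, and in Myl3 (chr9:110763428-110763727, + strand) MCAT matches lay at -177 and -149. Myh7 had 2 listed windows, and the window shown is the first whose start was found in a GENCODE vM21 transcript. Windows were matched by Entrez identifier for 30 of the 40 genes, and some genes had 2 or 3 windows. A gene counted for a motif when any of its windows held a match. CAGCTG occurred in 15 of these 30 genes (50%) and in 18.3% of the 27025 genes with windows. CATTCC occurred in 12 (40%, against 16.6%), the MEF2-type motif in 4 (13.3%, against 4.23%) and TATAAA in 7 (23.3%, against 15.7%). No windows were matched for Tnnt3, Tnni2, Neb, Actn3, Myoz1, Myot, Trdn, Jph1, Jsrp1 and Cox6a2. A match describes the letters only.

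The whole set was lower in Z1C2Z. Each of the 40 genes had a log2 fold change under 0, with a median of -0.64 and a range of -1.53 to -0.22, where the median of all 15147 genes was 0.01. A gene counted as called when edgeR's quasi-likelihood test gave an adjusted p under 0.05 with a log2 fold change beyond 1 in size. By this rule 2 genes were called lower, Xirp2 and Tnnt1, where 1.25% of all genes were, and none was called higher (2.15% of all genes). Of the 40, 23 were lower at an unadjusted p under 0.05, as were 15.2% of all genes. At an adjusted p under 0.05 with any fold, 12 genes were lower, against 3.85% of all genes. For 17 genes every Z1C2Z sample lay below every control sample, which held for 8.82% of all genes. DESeq2, run on the same counts, gave 22 genes an adjusted p under 0.05 and a lower level (10.2% of all genes), and called the same pair, Xirp2 and Tnnt1. The calls depended on single samples. With edgeR, none of the 40 genes had an adjusted p under 0.05 when Z1C2Z-1, Z1C2Z-2, Z1C2Z-4 or control-5 was left out, where no gene of the whole table was called. In these 4 fits 22 to 25 of the 40 were lower at an unadjusted p under 0.05, where 10.6% to 14.3% of all genes were. Without control-2, 4 of the 40 had an adjusted p under 0.05, and without control-3, 17 did. The share of all genes at that limit was not counted in these fits. At an unadjusted p under 0.05, 27 of the 40 were lower without control-2, against 13% of all genes. Without control-3 it was 33, against 13.3%. In each of these fits at least 39 of the 40 genes stayed under 0. In bulk tissue, fewer muscle fibers in a sample and less RNA per fiber cannot be told apart.

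**Figure D1:**
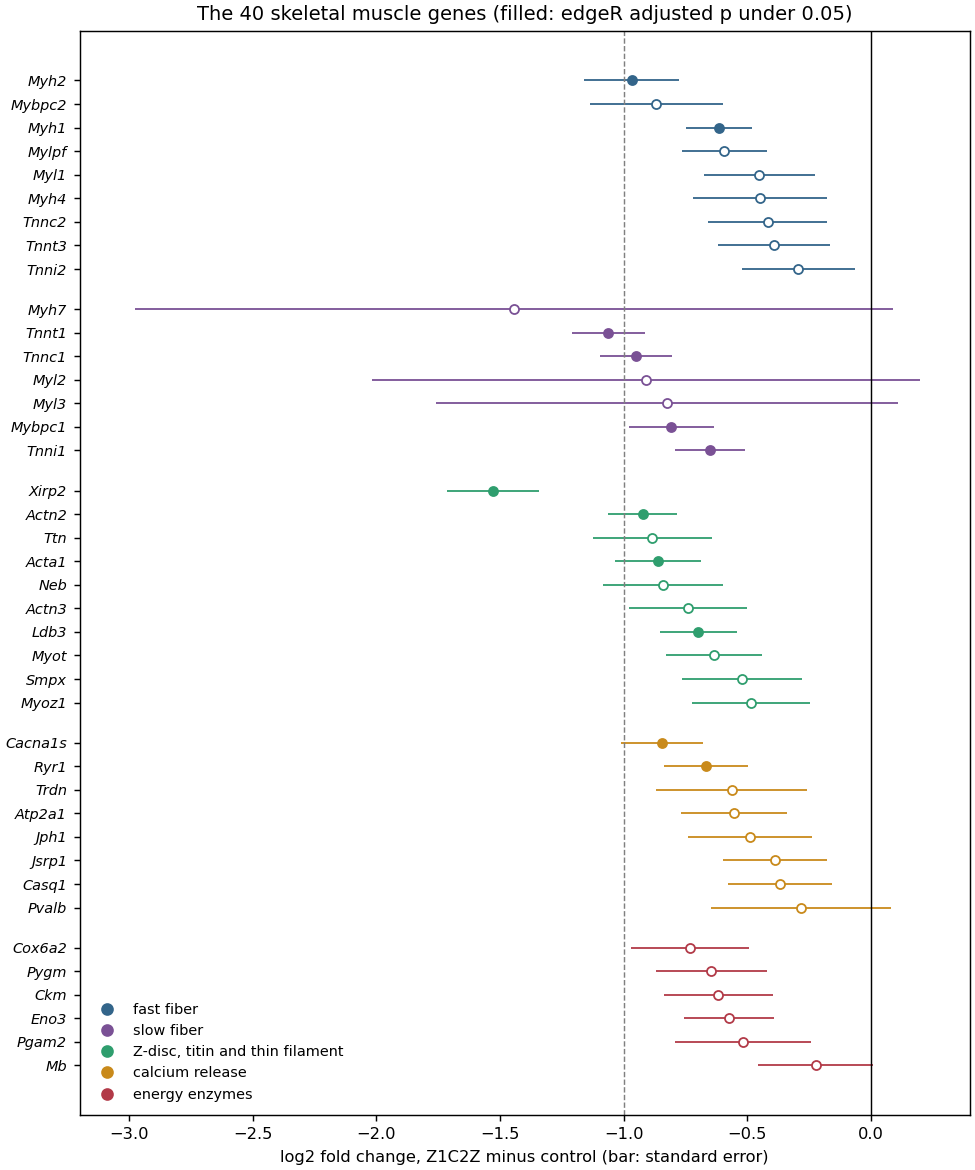
Log2 fold change of each of the 40 genes, Z1C2Z minus control, with the standard error as a bar and filled points for an adjusted p under 0.05. Every point lies below 0, and Xirp2 and Tnnt1 are the filled points beyond the dashed line at -1.

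Summed over the 40 genes, the level was 11168, 7321, 5911 and 7815 CPM in control and 5716, 4960, 5172 and 5053 CPM in Z1C2Z. The groups did not overlap, although the lowest control sample and the highest Z1C2Z sample lay close together. The mean was 8054 ± 2227 (SD, n = 4) in control and 5225 ± 338 (SD, n = 4) in Z1C2Z, which is 64.9% of control. The control samples were spread far more widely than the Z1C2Z samples. Control-1 was the highest of all 8 samples for 33 of the 40 genes, control-2 for 5 and control-5 for 2. The lowest sample was Z1C2Z-5 for 16 genes and Z1C2Z-2 for 13. Without control-1 the median log2 fold change was -0.43, 38 genes were under 0, and Xirp2 and Tnnt1 were still called.

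**Figure D2:**
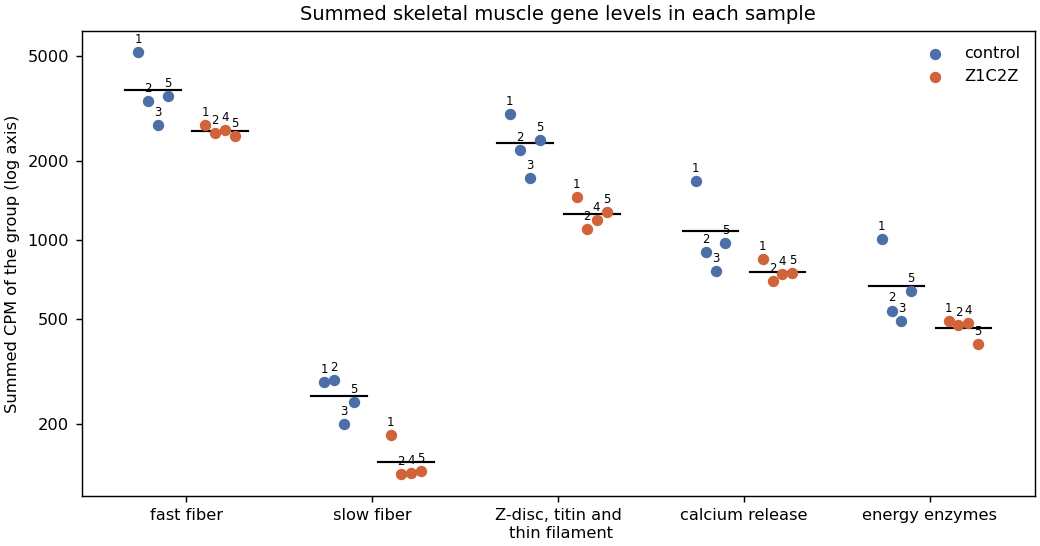
Summed CPM of each gene group in each sample (log axis), with sample numbers beside the points and group means as lines. Slow fiber genes and the genes of the Z-disc, titin and thin filament separate the groups, while the other 3 groups of genes touch or overlap, and control-1 lies highest in 4 of the 5. Most of the slow fiber sum is Mybpc1, at a mean of 186 of 255 CPM in control and 106 of 143 CPM in Z1C2Z.

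Other tissue markers also moved between the groups. Hair follicle markers were higher in Z1C2Z, with 9 of 11 called, where 2.15% of all genes were called higher. Their sum was 635 to 3803 CPM in control and 4631 to 15693 CPM in Z1C2Z. Of 7 smooth muscle markers, 3 had an adjusted p under 0.05 and a lower level, against 3.85% of all genes. Cnn1, a calponin of smooth muscle, was called. The sum of the 7 was 532 to 743 CPM in control and 441 to 515 CPM in Z1C2Z. Among 5 fibroblast markers, Dcn and Lum, both collagen-binding proteoglycans, were lower at an adjusted p under 0.05, with sums of 31101 to 42784 and 24045 to 33375 CPM. No marker passed the test among those of neutrophils (5; sums 572 to 1497 and 167 to 655 CPM) and macrophages (4; 882 to 1191 and 498 to 948 CPM). None passed among those of endothelium (3; 208 to 593 and 175 to 343 CPM) and adipocytes (7; 586 to 744 and 449 to 863 CPM). The adipocyte sum was mostly Fabp4, at a mean of 399 of 687 CPM in control and 417 of 630 CPM in Z1C2Z. Of the 7 adipocyte markers, 5 had a log2 fold change under 0 (median of the 7 -0.47), as had all those of neutrophils, macrophages and endothelium. Of 7 epidermis markers, 1 was called higher, Krt2, at 5 to 18 counts in control and 25 to 177 counts in Z1C2Z. The epidermis sums were 11493 to 13988 and 12808 to 17988 CPM, of which Krt2 was a mean of 0.27 and 2.62 CPM. The heart muscle markers Myh6 and Nppa had 0 to 2 counts in every sample, and Mybpc3 had 1 to 7. The other 2 heart markers passed the filter on low counts. Tnnt2, the troponin T of heart and of developing muscle, had 707 to 1073 counts and a log2 fold change of -0.43 (adjusted p = 0.0786), and Tnni3, the inhibitory troponin of heart, had 13 to 53 counts and 0.19 (adjusted p = 0.784). The part of these changes in tissue makeup in the muscle results was not tested.

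Xirp2, an actin-binding repeat protein of the Z-disc and of the junctions where filaments meet the membrane, changed most among the 40 genes. Its level was 299, 273, 194 and 244 CPM in control and 117, 77.3, 71.5 and 84.7 CPM in Z1C2Z. The groups did not overlap, and the highest Z1C2Z sample lay well below the lowest control sample. The control mean of 253 ± 45.1 (SD, n = 4) was 2.88-fold that of Z1C2Z, 87.6 ± 20.3 (SD, n = 4), a log2 fold change of -1.53 (SE 0.18, adjusted p = 0.0232, edgeR). Over 14 other settings the log2 fold change was between -1.69 and -1.44 and the adjusted p between 2.81e-12 and 0.0888. It was over 0.05 without control-5 (0.0618), Z1C2Z-1 (0.0661), Z1C2Z-2 (0.0888) and Z1C2Z-4 (0.0876).

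Tnnt1, the troponin T that ties slow troponin to tropomyosin, was 20.4, 26.5, 19.6 and 22.8 CPM in control and 13.1, 10.5, 10.4 and 8.84 CPM in Z1C2Z. Again the groups did not overlap, and the control samples differed little from each other. Its log2 fold change was -1.06 (SE 0.15, adjusted p = 0.0280, edgeR), from 22.3 ± 3.10 to 10.7 ± 1.76 CPM (SD, n = 4 each). Over 14 other settings the adjusted p was between 4.13e-08 and 0.0888, and the value lies close to the limit of -1 (range -1.16 to -0.97). Its adjusted p was over 0.05 without control-5 (0.0725), Z1C2Z-1 (0.0661), Z1C2Z-2 (0.0888) and Z1C2Z-4 (0.0876), and its log2 fold change was -0.97 without control-2 and -0.98 without Z1C2Z-5.

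**Figure D3:**
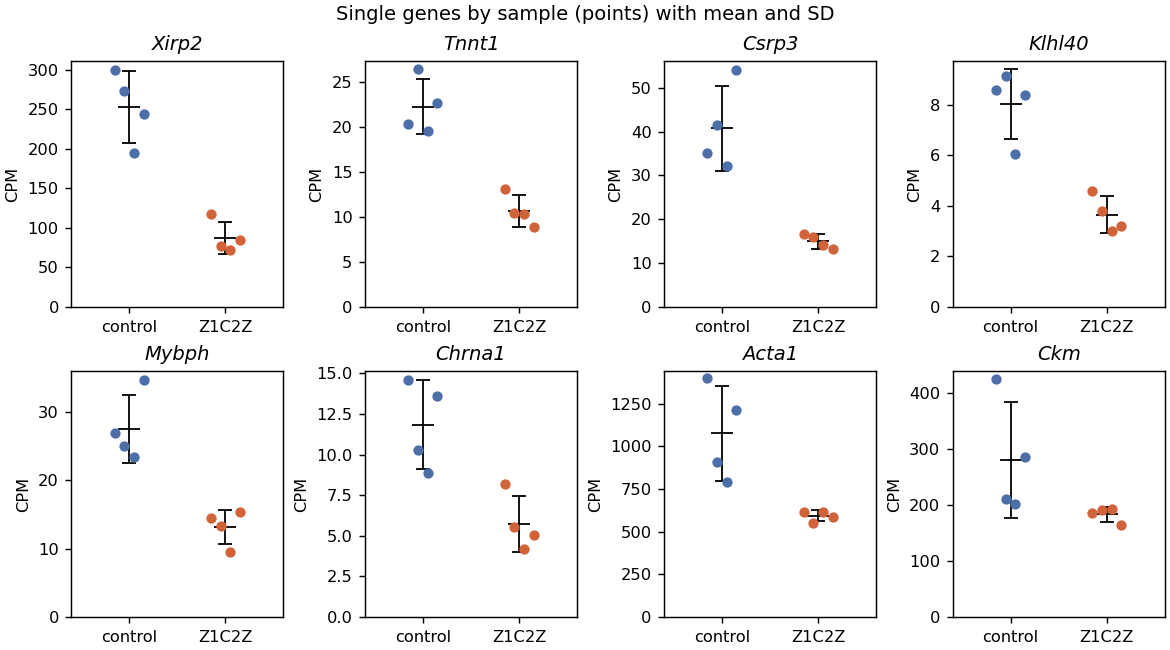
CPM of 8 muscle genes by sample (points) with mean and SD (n = 4 per group), on axes that start at 0. For 6 of them, the called genes, the Z1C2Z mean is under 50% of the control mean, whereas for Acta1 and Ckm it is higher.

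Among the other genes of the Z-disc, titin and thin filament, Actn2, Acta1 and Ldb3 passed an adjusted p under 0.05. Acta1, the skeletal actin of the thin filament, was 1398, 906, 791 and 1215 CPM in control and 616, 551, 618 and 589 CPM in Z1C2Z. The Z1C2Z samples were almost level and all lay below the control samples (log2 fold change -0.86, SE 0.17, adjusted p = 0.0303). Actn2, the α-actinin that crosslinks actin at the Z-disc, was between 82.4 and 120.3 CPM in control and between 50.7 and 66.9 CPM in Z1C2Z, a log2 fold change of -0.92 (SE 0.14, adjusted p = 0.0299). Ldb3, a Z-disc adaptor that binds α-actinin, differed by -0.70 (adjusted p = 0.0354), with no overlap.

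The giant proteins behaved differently between samples. Ttn, titin, was 428, 351, 242 and 309 CPM in control and 244, 124, 145 and 208 CPM in Z1C2Z. Neb, nebulin, was 293, 289.9, 189 and 235 CPM in control and 202, 97.0, 108 and 155 CPM in Z1C2Z. Both were lowest in Z1C2Z-2 and Z1C2Z-4, and in both Z1C2Z-1 lay just above control-3, so the groups overlapped. Their log2 fold changes were -0.88 (SE 0.24, adjusted p = 0.0540) and -0.84 (SE 0.24, adjusted p = 0.0633), and neither passed the test. The same Z1C2Z-2 and Z1C2Z-4 samples had the highest hair follicle sums, 15693 and 15012 CPM, a relation that was not tested.

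The remaining genes of this group did not pass. Actn3, the α-actinin of fast fibers, Myot, myotilin, Smpx, a small protein of the muscle membrane skeleton, and Myoz1, which tethers calcineurin at the Z-disc, had log2 fold changes of -0.74, -0.63, -0.52 and -0.48, with adjusted p-values from 0.0734 to 0.222. Actn3 and Myot did not overlap between groups. Myoz1 was 50.7, 24.3, 23.2 and 28.2 CPM in control and 21.9, 24.8, 24.2 and 19.2 CPM in Z1C2Z. Here only control-1 stood clearly above the rest. In the group as a whole, 4 of 10 genes were lower at an adjusted p under 0.05, against 3.85% of all genes. For 6 of 10 the groups did not overlap, against 8.82% of all genes with Z1C2Z lower. The median log2 fold change was -0.79.

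Slow fiber genes fell into distinct patterns. Tnnt1, Tnni1, Tnnc1 and Mybpc1 were lower in Z1C2Z without overlap, while Myh7, Myl2 and Myl3 varied widely within both groups. Tnni1, the slow inhibitory troponin, was 19.6, 19.8, 17.5 and 25.4 CPM in control and 13.8, 14.6, 12.9 and 11.1 CPM in Z1C2Z. The groups did not overlap (log2 fold change -0.65, SE 0.14, adjusted p = 0.0337). Tnnc1, the calcium-binding troponin of slow fibers and heart, differed by -0.95 (SE 0.15, adjusted p = 0.0299), from 14.2 ± 1.91 to 7.34 ± 0.993 CPM (SD, n = 4 each). Mybpc1, the slow myosin-binding protein C, was 232, 204, 135 and 175 CPM in control and 129, 93.8, 99.1 and 104 CPM in Z1C2Z. Its groups did not overlap either, although control-3 and Z1C2Z-1 lay close together (log2 fold change -0.81, SE 0.17, adjusted p = 0.0336).

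Myh7, the myosin heavy chain of slow fibers and heart, had 8, 796, 424 and 25 counts in control and 431, 3, 9 and 15 counts in Z1C2Z. The high samples were control-2, control-3 and Z1C2Z-1, and the other 5 held a few counts each. Myl2, the slow regulatory light chain, had 11, 190, 90 and 11 counts in control and 131, 12, 15 and 6 counts in Z1C2Z. Myl3, the slow essential light chain, had 5, 86, 52 and 5 counts in control and 48, 14, 4 and 20 counts in Z1C2Z. The same 3 samples were high for all 3 genes, which encode the heavy chain and both light chains of slow myosin. These samples come from both groups, and the log2 fold changes of -1.44 (SE 1.53), -0.91 (SE 1.11) and -0.82 (SE 0.93) had adjusted p-values of 0.570, 0.624 and 0.596. Single samples moved them far. Without Z1C2Z-1 the log2 fold change of Myh7 was -5.17 (adjusted p = 0.0966), and without control-2 it was -0.41 (adjusted p = 0.900), within a range of 0.0966 to 0.935 over 13 settings. Over the same settings Myl2 ranged from -2.86 to 0.07 and Myl3 from -1.61 to 0.52. Tnnt1 in the same 3 samples was 26.5, 19.6 and 13.1 CPM, which was the highest value of its group in control-2 and Z1C2Z-1 and the lowest in control-3. The near absence of Myh6, the α heavy chain of heart, was shared by the high and the low samples. Within control, the 2 samples high for slow myosin had the highest hair follicle sums (2451 and 3803 CPM, against 694 and 635 CPM), whereas in Z1C2Z the high sample had 9383 CPM, between 4631 and 15693 CPM. Z1C2Z-1 also had the highest summed level of the 40 genes in its group. These relations were not tested.

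**Figure D4:**
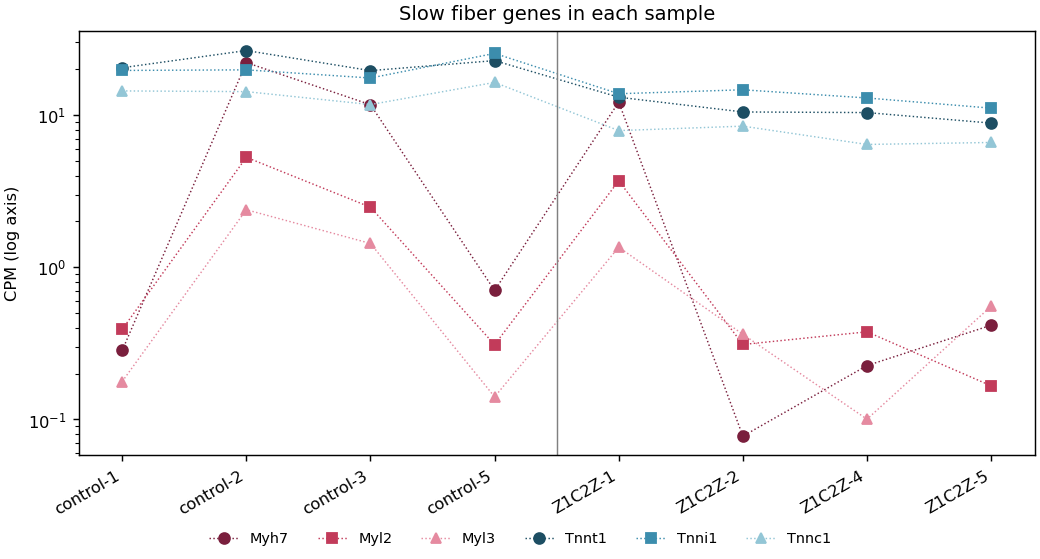
CPM (log axis) of 6 slow fiber genes in the 8 samples. Myh7, Myl2 and Myl3 (red) rise together in control-2, control-3 and Z1C2Z-1. Tnnt1, Tnni1 and Tnnc1 (blue) vary far less and are lower in all Z1C2Z samples than in any control sample.

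Fast fiber genes had a median log2 fold change of -0.45. Of the 9, 2 were lower at an adjusted p under 0.05, against 3.85% of all genes. Myh2, the heavy chain of type IIa fibers, was 151, 139, 88.2 and 127 CPM in control and 76.9, 57.0, 74.2 and 50.2 CPM in Z1C2Z. Its groups did not overlap (log2 fold change -0.97, SE 0.19, adjusted p = 0.0303). Myh1, the heavy chain of type IIx fibers, was 928, 1061, 773 and 813 CPM in control and 642, 528, 655 and 513 CPM in Z1C2Z. All Z1C2Z samples were lower (log2 fold change -0.61, SE 0.13, adjusted p = 0.0341). Myh4, the heavy chain of type IIb fibers, was 1080.1, 566, 447 and 685 CPM in control and 605, 385, 429.9 and 618 CPM in Z1C2Z. Its groups overlapped, although control-1 and control-5 lay above every Z1C2Z sample (log2 fold change -0.45, SE 0.27, adjusted p = 0.313).

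The other fast genes did not pass the test. Myl1, the fast essential light chain, was 912, 480.4, 426 and 551 CPM in control and 447, 492, 408 and 387 CPM in Z1C2Z. Tnni2, the fast inhibitory troponin, was 238, 128, 104 and 162 CPM in control and 121, 141, 141 and 114 CPM in Z1C2Z. In both, control-1 stood far above the other 7 samples, which overlapped, and the log2 fold changes were -0.45 (adjusted p = 0.221) and -0.29 (adjusted p = 0.433). Tnnt3 and Tnnc2, the fast troponins T and C, had values of -0.39 and -0.42 with overlapping groups. Mylpf, the fast regulatory light chain, and Mybpc2, the fast myosin-binding protein C, did not overlap and had values of -0.59 and -0.87 (adjusted p = 0.0658 and 0.0758). Without control-1 the median of the 9 fast genes moved from -0.45 to -0.17. That of the 7 slow genes moved from -0.91, the value of Myl2, to -1.11. This followed Myh7, Myl2 and Myl3, which varied widely and moved further down. Tnnt1, Tnni1, Tnnc1 and Mybpc1 moved from -1.06, -0.65, -0.95 and -0.81 to -1.11, -0.68, -0.95 and -0.69.

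Per kilobase of the longest coding transcript (GENCODE vM21), Myh1 was the most abundant myosin heavy chain in 6 of 8 samples and Myh4 in 2, control-1 and Z1C2Z-5. Myh1 made up 46.8% ± 6.55 (SD, n = 4) of the summed level of 6 heavy chains per kilobase in control and 44.7% ± 5.65 in Z1C2Z. Myh4 made up 35.5% ± 8.03 and 38.9% ± 5.73, and Myh2 6.48% ± 0.422 and 4.92% ± 0.853. The Myh2 share was 6.38%, 6.87%, 5.93% and 6.75% in control and 5.07%, 5.16%, 5.75% and 3.73% in Z1C2Z. These shares did not overlap, whereas those of Myh1 and Myh4 did. The heavy chains of growing fibers, Myh8 and Myh3, had shares of 8.49% ± 1.59 and 2.35% ± 0.532 in control and 8.92% ± 0.652 and 2.38% ± 0.459 in Z1C2Z. Myh1 and Myh2 share 26.7% and 26.9% of their 50-base stretches with another gene, mostly each other, and Myh4 shares 18.9%, so counts could be split differently among them by another counting method.

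Calcium release genes had a median log2 fold change of -0.52. Of the 8, 2 were lower at an adjusted p under 0.05, against 3.85% of all genes. Cacna1s, the voltage sensor of the membrane, was 50.2, 41.8, 31.0 and 36.2 CPM in control and 26.7, 19.0, 20.4 and 22.5 CPM in Z1C2Z. The groups did not overlap (log2 fold change -0.84, SE 0.16, adjusted p = 0.0303). Ryr1, the ryanodine receptor that this sensor opens, was between 74.6 and 128 CPM in control and between 55.8 and 79.5 CPM in Z1C2Z. Its groups overlapped in Z1C2Z-1 and control-3, with a log2 fold change of -0.67 (SE 0.17, adjusted p = 0.0467). Without control-1 Ryr1 had an adjusted p of 0.0620, and over 14 settings the adjusted p was between 0.00329 and 0.129.

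Calcium storage and buffering genes did not pass. Atp2a1, the pump that returns calcium to the reticulum, was 858, 507, 418 and 521 CPM in control and 470.1, 330.4, 377 and 393 CPM in Z1C2Z (log2 fold change -0.55, adjusted p = 0.132). Casq1, the calcium store of fast fibers, was 161, 78.4, 81.6 and 102 CPM in control and 77.8, 83.2, 84.2 and 82.5 CPM in Z1C2Z. Pvalb, the soluble calcium buffer of fast fibers, was 318, 89.0, 98.5 and 136 CPM in control and 117, 144, 133 and 132 CPM in Z1C2Z. For Casq1 and Pvalb the Z1C2Z samples lay inside the control range except for Z1C2Z-1 in Casq1, and control-1 alone was far above. Without control-1 the log2 fold change of Pvalb turned from -0.28 to 0.28 and that of Casq1 moved from -0.37 to -0.10. Trdn and Jsrp1, which anchor the release complex, and Jph1, which holds its membranes together, had values of -0.56, -0.39 and -0.49 with overlapping groups. Without control-1 the median of the 8 calcium release genes was -0.21.

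No energy enzyme passed an adjusted p under 0.05, and 4 of 6 had an unadjusted p under that value, which 15.2% of all genes had in the same direction. Ckm, the creatine kinase of muscle, was 427, 211, 202 and 286 CPM in control and 187, 191, 193 and 164 CPM in Z1C2Z. The groups were separated by a narrow gap (log2 fold change -0.62, SE 0.22, adjusted p = 0.111). Eno3, the muscle enolase, was 175, 103, 93.8 and 120.0 CPM in control and 87.4, 79.7, 88.1 and 75.6 CPM in Z1C2Z, also without overlap (-0.57, adjusted p = 0.0811). Cox6a2, a muscle subunit of cytochrome c oxidase, had the lowest value of the group, -0.73 (adjusted p = 0.0875), at 13.0, 7.13, 6.03 and 8.59 CPM in control and 6.20, 5.41, 4.47 and 4.80 CPM in Z1C2Z. Control-3 lay just inside the Z1C2Z range. Mb, myoglobin, was 178, 105, 92.4 and 97.7 CPM in control and 112, 119, 103 and 72.3 CPM in Z1C2Z. Its groups overlapped, and its log2 fold change of -0.22 was the one closest to 0 among the 40. Pygm, which breaks down glycogen, and Pgam2, a mutase of glycolysis, had values of -0.65 and -0.52 with overlapping groups. The median of the 6 enzymes was -0.59, and -0.35 without control-1.

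To see which genes differed beyond the common shift, levels were also set against the mean log2 level of the 9 fast fiber genes in the same sample. On this scale Xirp2 was -0.60, -0.01, -0.22 and -0.35 in control and -0.95, -1.46, -1.63 and -1.24 in Z1C2Z. The groups did not overlap, and the difference was -1.02. When library sizes were set to the counts of the fast fiber genes, Xirp2 was the 1 gene of the 40 that was called lower (log2 fold change -1.05, SE 0.22, adjusted p = 0.00607, edgeR), where 0.561% of all genes were called lower. This scaling moved the median of all genes to 0.45, and 26 of the 40 genes stayed under 0. Of these 26, 4 were fast fiber genes, whose own counts set the scale. Tnnt1 had -0.63 in that fit (adjusted p = 0.0763). On the relative scale it was -4.47, -3.38, -3.52 and -3.77 in control and -4.10, -4.34, -4.41 and -4.49 in Z1C2Z. The groups overlapped through control-1 only.

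**Figure D5:**
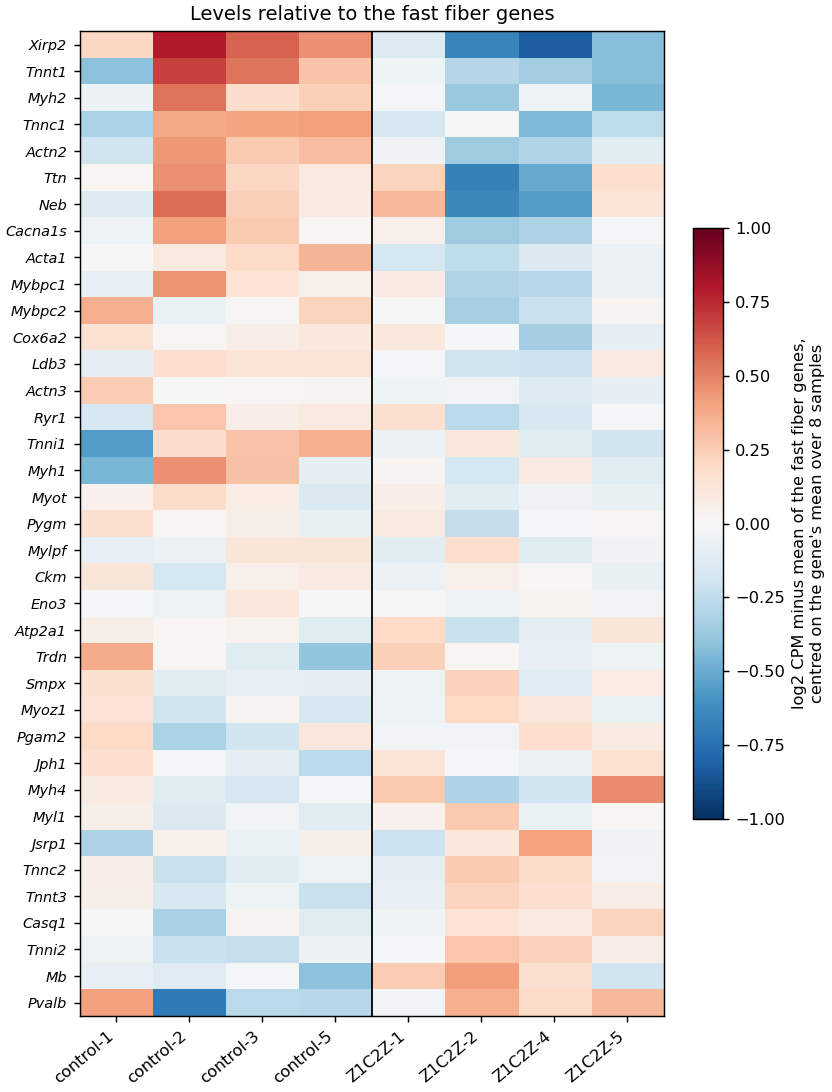
Log2 CPM of 37 genes minus the mean of the fast fiber genes in the same sample, centred on each gene's mean over the 8 samples, with Myh7, Myl2 and Myl3 left out for their wide range. Xirp2 at the top is higher in every control sample than in any Z1C2Z sample, and the fast genes form part of their own reference.

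Acta1 stood 1.78 ± 0.14 (SD, n = 4) above the fast fiber mean in control and 1.46 ± 0.08 in Z1C2Z on the log2 scale, without overlap. Actn3 also did not overlap and was lower by 0.15, against an SD of 0.12 in control. Tnni2, itself part of the fast fiber mean, lay on the other side, at -1.02 ± 0.10 in control and -0.74 ± 0.14 in Z1C2Z, without overlap. The share of all genes without overlap on this scale was not computed. In the fit scaled to fast fiber counts, neither Acta1 (-0.36, adjusted p = 0.162) nor Tnni2 (0.24) passed the test. By group the medians in that fit were -0.28 for the Z-disc, titin and thin filament, -0.07 for energy enzymes and 0.03 for calcium release. The fast fiber median of 0.08 lies near 0 because these genes set the scale. The slow fiber median of -0.53 is the value of Myl3 (SE 0.80, adjusted p = 0.615), which varied widely. Tnnt1, Tnnc1, Mybpc1 and Tnni1 had -0.63, -0.49, -0.32 and -0.20, with adjusted p-values from 0.0763 to 0.510.

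Long transcripts tended to have lower values. The median log2 fold change was -0.84 for the 10 genes with transcripts of at least 5000 bases, -0.63 for the 12 between 1500 and 5000 bases and -0.52 for the 18 shorter ones. Over all genes the medians in these classes were -0.06, 0.01 and 0.10. Xirp2 belongs to the long class and Tnnt1 to the short class. The part of transcript length in these differences was not tested.

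Another 53 contractile and calcium genes outside the 40 moved the same way, with a median log2 fold change of -0.60. Of these, 52 were under 0, and Dmd, dystrophin, was the 1 gene above 0 (0.25, adjusted p = 0.319). At an adjusted p under 0.05, 15 of the 53 were lower, against 3.85% of all genes. For 25 the groups did not overlap, against 8.82% of all genes with Z1C2Z lower. The genes called lower were 4, against 1.25% of all genes. Csrp3, a LIM protein of the Z-disc, was 35.1, 41.5, 32.1 and 54.1 CPM in control and 16.6, 16.0, 14.0 and 13.1 CPM in Z1C2Z. With a log2 fold change of -1.45 (SE 0.17, adjusted p = 0.0232) it came closest to Xirp2. Mybph, a myosin-binding protein related to protein C, was 27.0, 25.1, 23.5 and 34.7 CPM in control and 14.5, 13.3, 9.54 and 15.3 CPM in Z1C2Z (-1.07, adjusted p = 0.0299). Klhl40, which stabilises nebulin, was 8.60, 9.13, 6.03 and 8.37 CPM in control and 4.60, 3.81, 2.99 and 3.19 CPM in Z1C2Z (-1.14, adjusted p = 0.0299). Mybph and Klhl40 had their lowest Z1C2Z value in Z1C2Z-4, and Csrp3 had its lowest in Z1C2Z-5. Chrna1, the α subunit of the acetylcholine receptor, was 14.6, 10.3, 8.87 and 13.6 CPM in control and 8.21, 5.54, 4.19 and 5.02 CPM in Z1C2Z (-1.04, adjusted p = 0.0374). None of these 4 overlapped between groups. Des, desmin, the intermediate filament that links Z-discs, was 334, 265, 199 and 301 CPM in control and 141, 135, 148 and 137 CPM in Z1C2Z (-0.97, adjusted p = 0.0299). Klhl41, a partner of nebulin, differed by -0.92 (adjusted p = 0.0299). Desmin is also made by smooth muscle.

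Genes of muscle regeneration, 9 in number, were all under 0 and none was called. Myog, the factor that starts fiber differentiation, and Mymk, a fusion protein of myoblasts, had log2 fold changes of -0.76 (adjusted p = 0.0426) and -0.74 (adjusted p = 0.0486). Myod1, which commits cells to muscle, was 2.24, 1.28, 1.21 and 1.41 CPM in control and 2.06, 1.27, 1.18 and 1.11 CPM in Z1C2Z, so that the groups overlapped almost fully (-0.12, adjusted p = 0.819). Summed over the 9 genes, the level was 182 to 270 CPM in control and 139 to 192 CPM in Z1C2Z.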

How the data were processed

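The deposited table holds raw read counts for each gene, with symbols and Entrez identifiers, and the authors applied no normalization to them. The labels state ribosomal RNA depletion, random priming and dUTP in the second strand, and name Trizol, whereas the methods name a column kit. The aligner, counter, genome build and strand setting are not given in the sources used here. Totals were 28856790 to 38974888 counts per sample, and 0 columns of sample values were left unused. No libraries agreed within sampling noise (smallest chi-square per degree of freedom 21.7).

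The tools were edgeR 4.0.16 under R 4.3.3 (limma 3.58.1 is loaded by it), with filterByExpr, TMM scaling and a quasi-likelihood test of the 4 Z1C2Z against the 4 control samples, without covariates, adjusted by Benjamini-Hochberg over 15147 genes. Calls required an adjusted p under 0.05 and a log2 fold change beyond 1 in size. CPM used TMM-scaled library sizes. The test was tried on simulated counts of this comparison (15147 genes). With a log2 change of 2 set in 200 genes, it recovered 196 and called 4 unchanged genes.

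The genes and lists were chosen with earlier results of these data known. Values by sample are printed for called genes, for the 3 genes with the highest mean CPM in each group of genes and for those with its highest and lowest log2 fold change. Others named by sample, such as Myl2, Myl3, Des and Myod1, were chosen after their values were seen. Alternatives were DESeq2 1.42.0, RLE size factors, scaling without muscle genes, no filter, a minimum of 10 counts, the sample number as a block, an adjusted p alone, each sample left out, and, added after seeing the data, scaling to fast fiber counts. Transcript lengths and shared 50-base stretches came from GENCODE, for 14737 of 15147 genes.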

Additional observations from a re-analysis of the deposited data

Results flagged for a closer look

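Among 54 checks of a single sample lying far from the other 3 of its group, 1 passed Dixon's 95% limit, where chance flags about 1 in 20. It was the summed level of slow fiber genes in Z1C2Z-1, at 181 CPM against 128 to 132 CPM in the other 3 Z1C2Z samples, with a gap of 0.935 of the group's range. The same sample had 431 Myh7 counts and the highest Mybpc1 level of its group (129 CPM). The cause was not tested.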

How the results depend on the processing

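RLE size factors, scaling without muscle genes, no filter, a minimum of 10 counts (37 of the 40 genes tested) and DESeq2 called the same genes, Xirp2 and Tnnt1. DESeq2 called 333 genes lower in all, against 189. With an adjusted p alone, 12 of the 40 genes, 15 of the 53 other muscle genes and 583 of all genes were lower, and 648 were higher. The sample numbers 1, 2 and 5 occur in both groups. The deviations of same-numbered samples had correlations of -0.10, -0.06 and 0.32, and only those numbered 5 correlated best with each other. So few pairs cannot decide whether same-numbered samples belong together, and the main test treated all samples as unpaired. With the number as a replicate block, 4 of the 40 genes were called lower (Xirp2, Tnnt1, Myh2 and Actn2), where 184 of all genes were. In that fit 39 of the 40 were under 0. Samples whose number occurs in a single group add nothing to the group difference there, so it rests on the samples numbered 1, 2 and 5.

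Leaving out 1 sample gave 0 to 7 of the 40 genes lower, 0 to 8 of the 53, and 0 to 316 lower and 0 to 463 higher over all genes. The counts were 0 throughout without Z1C2Z-1, Z1C2Z-2, Z1C2Z-4 or control-5, where 22 to 25 of the 40 genes were lower at an unadjusted p under 0.05 with edgeR (10.6% to 14.3% of all genes). Without control-3, 7 of the 40 were called lower, where 228 of all genes were. Without control-2 or Z1C2Z-5 only Xirp2 of the 40 was called, where 76 and 316 of all genes were called lower. The log2 fold change of Pvalb ranged from -0.48 to 0.284 and that of Mb from -0.32 to 0.0405, both highest without control-1.

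Scaled to fast fiber counts, 1 of the 40 genes was lower, the median was -0.14, and Myh4 (0.0967), Myl1 (0.0828), Tnni2 (0.244), Myoz1 (0.0542), Pvalb (0.326), Casq1 (0.161) and Mb (0.295) turned above 0, as did Tnnt3, Tnnc2, Jsrp1, Jph1, Pgam2, Smpx and Trdn (0.00477 to 0.148). Of these, Myh4, Myl1, Tnni2, Tnnt3 and Tnnc2 are fast fiber genes, whose own counts set the scale. The cause of these changes was not tested. Genes such as Myl3, at 4 to 86 counts, have the fewest counts of the 40 genes and so the largest relative counting error.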
